A study of Mus musculus with 1078 samples.

Results

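The 44 genes described here encode parts of the machinery that copies and divides the genome, and they were chosen by name from a list, out of 21765 genes measured in 1078 single cells of mouse GL261 tumors. They comprise 10 S-phase genes (Mcm2 to Mcm7, Pcna, Rrm1, Rrm2 and Tyms), 23 mitotic genes, 7 genes of the entry into S phase (Ccne1, Ccne2, Cdc6, Cdt1, Gins2, Uhrf1 and Tk1, called G1/S genes below) and 4 others (Stmn1, Hmgb2, Cks1b and Cks2). GL261 is a glioma line that grows in the brain of C57Bl/6 mice, here aged 6 to 8 wk, with cells placed in the forebrain. Tumor-bearing mice received control treatment (label ctrl, PBS and IgG), losartan at 60 mg/kg daily for 2 wk (Los), anti-PD1 antibody at 200 μg per mouse in 3 doses spaced 3 d apart (PD1), or losartan+anti-PD1 (LosPD1). Live cells were sorted as CD45neg, CD45pos, CD3pos or CD31pos into plates and sequenced by Smart-seq2, which reads full-length cDNA of 1 cell per well. Each sort of each treatment is 1 plate (16 in all) and no animal is named, so there is 1 sample per group, no test was run, and a treatment cannot be told apart from its plate.

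A dividing cell first licenses its replication origins with the MCM2–7 helicase, then copies DNA in S phase with the sliding clamp PCNA and nucleotides made by ribonucleotide reductase and thymidylate synthase, and then enters mitosis under cyclin B and CDK1. The anaphase-promoting complex, activated by CDC20, ends mitosis by marking cyclins and other proteins for destruction. Most S-phase genes are switched on by E2F factors, whereas many mitotic genes are held back in resting cells by the DREAM complex and switched on later by B-MYB and FOXM1. In gliomas, deregulated cell cycle entry of the tumor cells is a hallmark, mature oligodendrocytes do not divide, and T cells divide once activated.

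Each cell was given an S-phase and a mitotic score, the mean of ln(TP100K + 1) over the 10 S-phase genes and the same over the 23 mitotic genes, where TP100K is a value after scaling the cell to a sum of 100000. A cell was called cycling with an S-phase score of at least 1 or a mitotic score of at least 0.5, and mitotic where the second held. These are ranges of a continuous score and not kinds of cell. Of 265 malignant cells on the CD45neg and CD31pos plates, 87 lay within 0.25 of the S-phase limit and 76 within 0.25 of the mitotic limit, and of 327 T cells on the CD3pos plates 46 and 27 did. Intervals are exact (Clopper-Pearson) 95% intervals, or Newcombe intervals for differences in percentage points, and for a count of 0 the limit given is 3 of the cells counted. All cover counting error over cells only, and concern cells with a value, not cells that express a gene.

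The plates held 26 to 89 cells, with 1023 to 7995 genes detected per cell. Values of the CD31pos and CD3pos plates were TPM, with no known read depth. Those of the CD45neg and CD45pos plates had a median total of 389298 and were mostly whole numbers. From this they were taken to be expected counts not divided by gene length, which is an inference. Plates were therefore compared only within a sort, and genes with each other only in TPM. By 6 markers per type, the labels held for most cells, with at least 3 own markers above 0 in 194 of 195 endothelial cells (TECs) of the CD31pos plates, 308 of 327 T cells of the CD3pos plates and 52 of 53 NK cells. In malignant cells, at least 3 of Ptprz1, Sox11, Sox6, Sox2, Moxd1 and Bcat1 were above 0 in 46 of 49 control, 41 of 47 losartan and 41 of 44 losartan+anti-PD1 cells of the CD45neg plates, and in 33 of 33, 25 of 25 and 50 of 51 of the CD31pos plates. The anti-PD1 plate of the CD45neg sort went against the label, with 1 of 8 such cells, while that of the CD31pos sort had 6 of 8. These 16 cells are in the pooled malignant values, and the pooled shares and cell type ratios are also given without them. Among microglia of the CD45pos plates, 47 of 79 had at least 3 of their markers above 0.

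Promoters of the genes show how the S-phase and mitotic groups differ in the letters around their start, and 120 bases upstream of 6 starts are printed for that reason (RefSeq, GRCm38.p6, 5′ to 3′ on the gene's strand). Pcna, Tyms, Cdc20 and Prc1 had the highest shares of cells above 0 in their group over 164 cycling malignant cells, at 98.2%, 95.1%, 84.8% and 80.5%. Mcm6 (92.1%) and Top2a (75%) were added afterwards as those with the most matches. Capitals mark CCAAT or its reverse complement ATTGG, the CHR element through which DREAM and B-MYB act (TTTGAA or TTCGAA, either strand, the latter being its own reverse complement) and the E2F letters TTTGGCGC, TTTCGCGC, TTTCCCGC and TTTGCCGC on either strand, which may overlap one another.
Pcna, chr2:132253181-132253300, minus strand: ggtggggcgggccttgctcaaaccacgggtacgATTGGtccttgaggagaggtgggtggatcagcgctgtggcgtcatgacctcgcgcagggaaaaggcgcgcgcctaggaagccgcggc
Tyms, chr5:30073626-30073745, minus strand: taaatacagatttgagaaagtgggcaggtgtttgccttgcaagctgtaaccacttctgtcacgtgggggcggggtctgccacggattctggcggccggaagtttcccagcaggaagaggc
Mcm6, chr1:128359706-128359825, minus strand: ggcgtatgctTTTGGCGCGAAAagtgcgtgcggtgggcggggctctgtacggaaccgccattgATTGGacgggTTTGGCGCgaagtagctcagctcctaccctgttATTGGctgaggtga
Cdc20, chr4:118437344-118437463, minus strand: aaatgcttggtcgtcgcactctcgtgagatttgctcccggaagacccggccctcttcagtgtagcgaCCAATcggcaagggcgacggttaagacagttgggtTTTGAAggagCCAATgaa
Prc1, chr7:80294356-80294475, plus strand: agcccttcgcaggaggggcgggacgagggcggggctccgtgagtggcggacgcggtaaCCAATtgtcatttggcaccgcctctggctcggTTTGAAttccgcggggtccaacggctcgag
Top2a, chr11:99024190-99024309, minus strand: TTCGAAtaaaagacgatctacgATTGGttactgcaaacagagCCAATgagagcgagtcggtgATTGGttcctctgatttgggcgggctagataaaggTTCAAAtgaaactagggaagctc

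Windows of 300 bases, from 250 before to 50 after the start, were at hand for 36 of the 44 genes. The CHR letters were in 15 of 19 mitotic promoters (78.9%), in 2 of 9 S-phase promoters (22.2%) and in 0 of 5 G1/S promoters, and in 21.7% of the promoters of all 27025 genes. The E2F letters showed the other order, in 1 of 19 (5.26%), 4 of 9 (44.4%) and 3 of 5 (60%), against 2.60% of all genes. In Plk1, Aurka, Bub1, Kif23, Cenpa and Cenpf the only CHR letters lay at or after the start, as did the only E2F letters of Mcm3 and Cdt1. CCAAT was in 17 of 19 mitotic and 8 of 9 S-phase promoters (41.1% of all genes). These are matches of letters, with no test, and no binding was measured.

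Malignant cells had the highest shares of cycling cells within each of their sorts. They cycled in 86 of 148 cells on the CD45neg plates (58.1%, 49.7 to 66.2) and in 78 of 117 on the CD31pos plates (66.7%, 57.4 to 75.1), where the sort for an endothelial marker had also taken them. Mitotic cells made up 32.4% and 49.6%. Without the anti-PD1 plates the cycling shares were 86 of 140 (61.4%) and 74 of 109 (67.9%). Malignant cells gave 164 of all 265 cycling cells and 106 of the 136 mitotic cells, counts that also depend on how many cells of each sort were plated. No other label with at least 10 cells on the plates of a sort came near these shares, as the plot of cycling cells shows. Units and genes detected differ between sorts, so this holds as a comparison only within a sort.

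**Figure D1:**
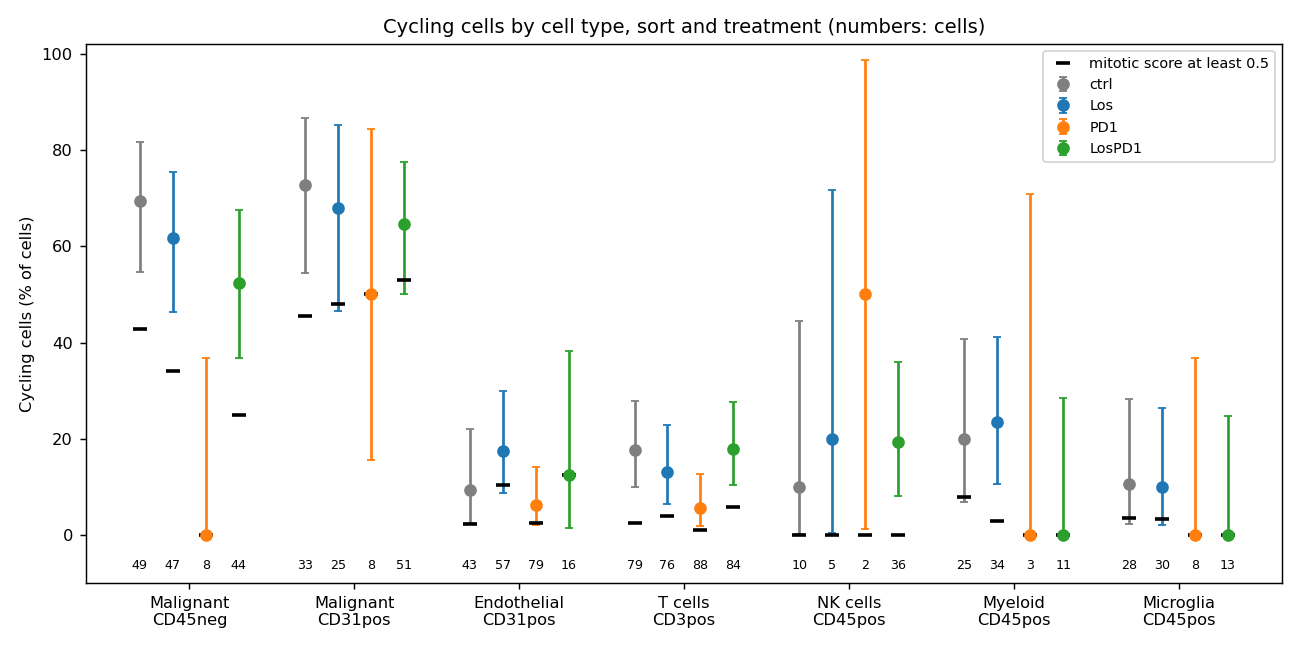
Share of cycling cells (y axis, % of cells) by cell type, sort and treatment, with points as the share, bars as exact 95% intervals over cells, black dashes as the share of mitotic cells, and the number of cells printed at the foot. Outside the anti-PD1 plates malignant cells lie highest, and in T cells the anti-PD1 plate is the lowest, at 5.68%.

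On the CD31pos plates 21 of 195 TECs cycled (10.8%, 6.79 to 16), 11 of them mitotic. Among T cells of the CD3pos plates 44 of 327 cycled (13.5%, 9.95 to 17.6), and 11 were mitotic (3.36%). NK cells had 10 cycling cells of 53 (18.9%, 9.44 to 32), all by the S-phase score alone, and 0 of 53 were mitotic, which allows a share of up to 5.66%. Of the cycling cells, most malignant ones reached mitotic levels, as did a minority of T cells and no NK cell. These sorts differ in units and in genes detected (medians of 7038.5 and 7042 in malignant, 2046 in T and 2765 in NK cells). The shares are therefore not set against each other.

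Myeloid cells of the CD45pos plates, whose markers here are those of dendritic cells (Flt3, Itgax and Cd209a among them), cycled in 13 of 73 (17.8%, 9.84 to 28.5), 3 of them mitotic. Microglia cycled in 6 of 79 (7.59%), and B cells in 2 of 33 (6.06%), both mitotic. Oligodendrocytes of the CD45neg plates, 29 of 31 of them from the anti-PD1 plate, passed the S-phase limit in 3 cells (9.68%, highest S-phase score 1.23) and the mitotic limit in none (highest 0.19). At least 3 malignant markers were above 0 in 6 of the 31, and without these 2 of 25 (8%) passed the S-phase limit. A score past the S-phase limit alone was thus also found in a type that does not divide. Such a score was had by 33 T cells, 10 TECs, 10 NK cells, 10 myeloid cells and 4 microglia, of other sorts than the oligodendrocytes.

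**Figure D2:**
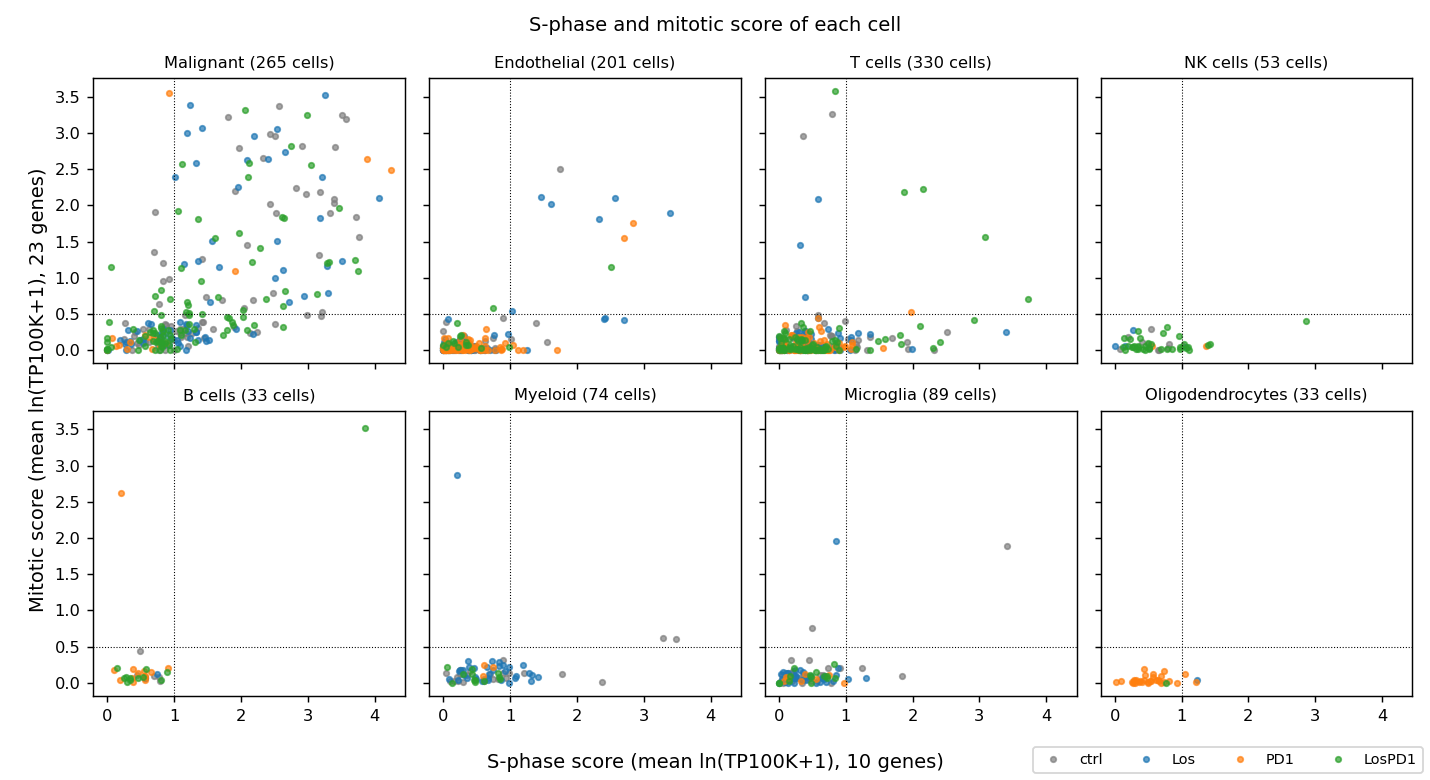
S-phase score (x axis) against mitotic score (y axis), both in mean ln(TP100K + 1), with 1 point per cell, a panel per cell type and colour for treatment; dotted lines mark the limits of 1 and 0.5. Malignant cells fill the upper right, most mitotic TECs lie there too, and T cells include cells high on 1 axis alone.

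Malignant cells and T cells also differed in how the 2 scores went together, though their sorts differ in genes detected as well. Of the mitotic malignant cells, 43 of 48 in the CD45neg sort and 51 of 58 in the CD31pos sort were past the S-phase limit as well, whereas 5 of 11 mitotic T cells were, and 33 T cells were past that limit alone. The correlation of the 2 scores over cells was 0.62 in malignant cells of either sort (0.61 and 0.62 without the anti-PD1 plates), 0.71 in TECs and 0.23 in T cells. Pairs of mitotic genes had a median correlation of 0.61 (CD45neg) and 0.67 (CD31pos) in malignant cells, 0.53 in TECs and 0.43 in T cells, and pairs of S-phase genes 0.50, 0.60, 0.34 and 0.17. All of these are descriptions over cells that share plates and detection depth.

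The number of genes detected moved with the share. On the CD45neg plates malignant cells with fewer than 4000 genes cycled in 5 of 23 (21.7%), those from 4000 to under 7000 in 29 of 49 (59.2%) and those with at least 7000 in 52 of 76 (68.4%). On the CD31pos plates the values were 2 of 5, 26 of 52 (50%) and 50 of 60 (83.3%). These values include the anti-PD1 cells. Malignant cells with fewer than 3 malignant markers above 0 cycled in 4 of 19 (21.1%) on the CD45neg plates and 0 of 3 on the CD31pos plates. The part of an uncertain label in the trend with genes detected was not tested. TECs and T cells had fewer genes, and the part of depth in the differences between types was not tested.

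Gene by gene, all 44 had a higher mean in malignant cells than in TECs on the CD31pos plates. The median log2 ratio of means, after adding 1 TP100K, was 1.63 over the 44 genes and −0.04 over all genes tested. Without the 8 anti-PD1 malignant cells the median was 1.57, with 43 of 44 higher, and with anti-PD1 TECs left out as well it was 1.34, again with 43. A log2 ratio of at least 1 in size, on genes above 0 in at least 10% of cells on average over both groups, is called here. It was reached upward by 33 of the 44, where 12.9% of all genes tested were called higher and 14.5% lower. Members below that detection limit cannot be called, so counts of called members are not shares of all 44.

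The largest ratios were those of Cdc20, Ccnb1, Cenpa (3.08) and Prc1. Cdc20, the activator of the anaphase-promoting complex, averaged 24.2 ± 51.5 TP100K (SD, 117 cells) in malignant cells and 1.71 in TECs (195 cells), a log2 ratio of 3.22. Ccnb1, which encodes cyclin B1, had 11.5 against 0.451 (3.11), and Prc1, a microtubule bundler of the central spindle, 8.70 against 0.297 (2.90). Against these, Stmn1, which encodes the microtubule regulator stathmin, had 23.1 ± 33.6 and 21.1 ± 41.7, and Tyms, the gene of thymidylate synthase, 4.06 and 2.86.

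On the CD45neg plates, where oligodendrocytes are the type for comparison, 42 of 44 genes were higher in malignant cells, with a median of 2.25 (all genes 0.20). Called were 37 higher and 1 lower (21.1% and 12% of all genes). Top2a, the gene of topoisomerase IIα that untangles replicated chromosomes, averaged 12.8 and was listed at 0 in all 31 oligodendrocytes, while Cdc20 had 20.9 against 0.0135. The gene called lower was Stmn1, at 8.54 against 25.6 (−1.48). Of the 31 oligodendrocytes 29 came from the anti-PD1 plate and of the 148 malignant cells 140 from the others, so cell type cannot be told apart from plate here. The median was 2.31 without the anti-PD1 malignant cells and 2.25 without the oligodendrocytes with malignant markers.

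**Figure D3:**
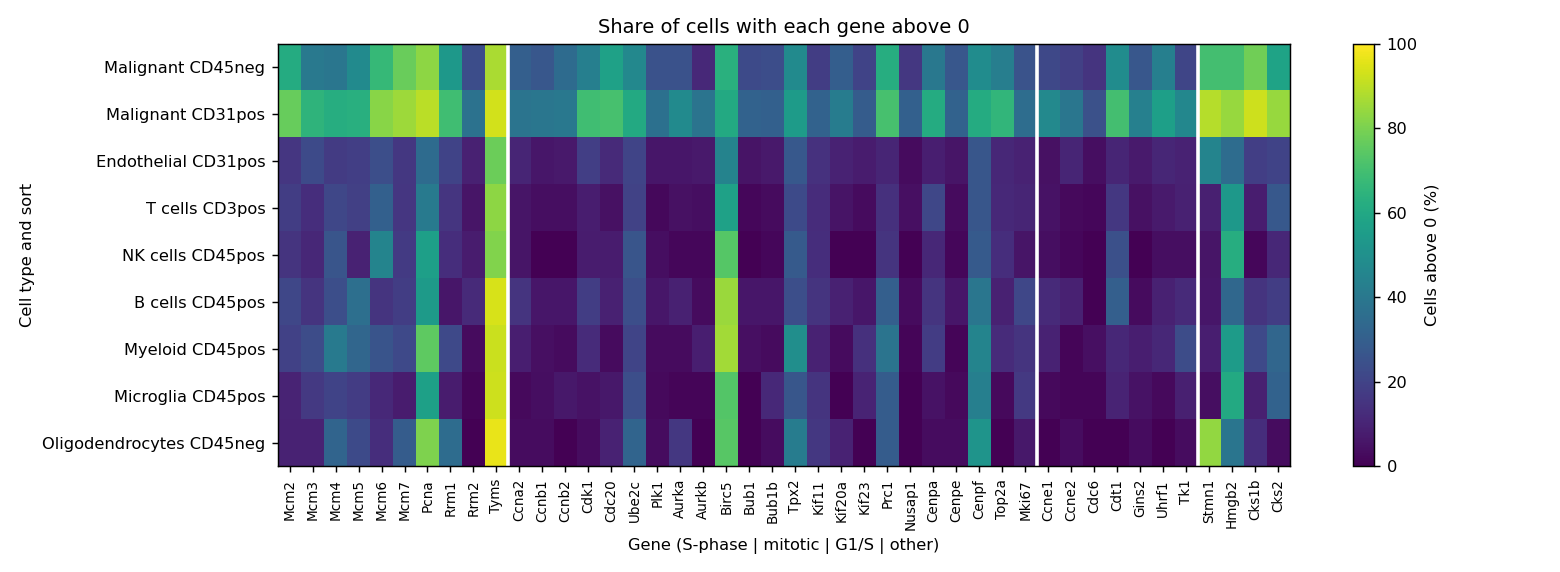
Share of cells with each of the 44 genes above 0 (colour, %), with genes in columns by group and cell types with their sort in rows. Malignant rows are bright for most genes; Tyms is bright in every row and Birc5 in most, and Stmn1 is also high in oligodendrocytes.

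Detection alone misleads for some genes. Tyms was above 0 in 70% to 100% of cells of every type and Birc5, which encodes survivin, in 44.6% to 100%, resting types included, at low means such as 1.70 and 2.09 TP100K in T cells. Tyms, Birc5, Cenpf, Ube2c, Cks1b, Cks2 and Stmn1 may share reads with near-identical copies, which the counting could split. Their detection, and the ratios of their means in all comparisons here, are uncertain in that sense. Without these genes the contrast stands in others such as Ccnb1 (39.3% of malignant cells and 6.15% of TECs on the CD31pos plates) and Top2a (65.8% and 11.3%).

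The 7 G1/S genes and the 4 others enter neither score, and so can be set against it. In T cells, Tk1, the salvage thymidine kinase, was above 0 in 14 of 283 cells that did not cycle (4.95%), 7 of 33 past the S-phase limit alone (21.2%) and 9 of 11 mitotic cells (81.8%). Stmn1 ran 2.83%, 30.3% and 100% in the same order, and Cks1b, which encodes a CDK-binding subunit, 4.24%, 12.1% and 90.9%. In these 3 genes T cells past the S-phase limit alone lay between the other states. Detection of Stmn1 and Cks1b is uncertain for the shared reads named above. Median genes detected also differed, at 1963, 2581 and, for mitotic cells, 4382 (both limits passed) or 3396 (the mitotic one alone). The part of this in the shares was not tested.

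In TECs Tk1 was above 0 in 3.45%, 30% and 90.9% of cells in the same 3 states. Uhrf1, which encodes a factor that keeps DNA methylation through replication, was above 0 in 6 of 174 cells that did not cycle (3.45%), 6 of 10 past the S-phase limit alone (60%) and 9 of 11 mitotic TECs (81.8%), and in T cells in 3.89%, 12.1% and 81.8%. Ccne1, the gene of cyclin E1, was listed at 0 in all 174 and above 0 in 2 of 10 and 7 of 11. Of the 11 mitotic TECs, 4 had at least 3 malignant markers above 0. Median genes detected were 2989.5 in TECs that did not cycle, 4640 past the S-phase limit alone and 6357 past both limits. The part of either in these shares was not tested. In malignant cells of the CD31pos plates Cdc6, which loads the helicase, went from 0 of 39 to 3 of 20 and 26 of 58, and mean Cks1b from 13.8 to 19.2 and 64.8 TP100K.

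Among genes that control entry into the cycle, Ccnd1, the gene of cyclin D1, averaged 22 TP100K in malignant cells of the CD31pos plates that did not cycle, 29.9 in those past the S-phase limit alone and 25.7 in mitotic ones, and was above 0 in 4 of 327 T cells. T cells carried Ccnd2, above 0 in 66.4%, 84.8% and 81.8% of cells in the same 3 states. Foxm1, the mitotic transcription factor, followed the state in malignant cells (5.13%, 15% and 63.8%), as did the repressive E2F gene E2f7 (0%, 0% and 41.4%) and Gmnn, which encodes the licensing inhibitor geminin (28.2%, 45% and 79.3%).

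Of 7 CDK inhibitor genes the mean was higher in mitotic than in non-cycling cells for 2 and lower for 5 in TECs, and higher for 3 and lower for 2 in T cells. Of 9 checkpoint and antiproliferative genes it was higher for 4 and lower for 5 in TECs, and the reverse in T cells. The share of cells above 0 went up in mitotic TECs for 6 of the 7 and 8 of the 9, and in mitotic T cells for 3 and 7. In malignant cells of the CD31pos plates the mean was higher for 5 and lower for 2 of the 7, and higher for 6 and lower for 3 of the 9. On the CD45neg plates it was higher for 4 and 5, and lower for 3 and 4. Klf2, a factor of quiescent endothelium, averaged 14.7 TP100K in TECs that did not cycle, 3.82 in those past the S-phase limit alone and 8.98 in mitotic ones, and the antiproliferative gene Btg2 had 20.7, 7.78 and 5.77. In T cells Cdkn1b, which encodes the CDK inhibitor p27, had 8.36, 4.29 and 2.73. Cdkn1a, the gene of p21, went the other way there, with 4.95, 25.8 and 10.2.

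By treatment, malignant cells of the CD45neg plates cycled in 34 of 49 control cells (69.4%), 29 of 47 losartan cells (61.7%) and 23 of 44 losartan+anti-PD1 cells (52.3%). The last differed from control by −17.1 points (−35.2 to 2.60), an interval that includes 0. None of the 8 anti-PD1 cells cycled, but they had a median of 3799.5 genes and mostly lacked malignant markers.

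Gene means moved down with the share under losartan+anti-PD1. Of the 44, 38 were lower than control and 6 higher, with a median log2 ratio of −0.40 (all genes −0.02). Called were 5 lower and 0 higher (1.07% and 1.26% of all genes). These were the helicase genes Mcm4 (−1.01) and Mcm5 (−1.09), the kinase gene Aurkb (−1.10), the spindle gene Nusap1 (−1.06) and Mki67 (−1.22), the gene of the proliferation antigen Ki-67. Mki67 averaged 5.76 ± 10.6 TP100K in control, 4.88 ± 13.4 in losartan and 1.91 ± 5.43 in losartan+anti-PD1 cells, and was above 0 in 18 of 49, 12 of 47 and 8 of 44.

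Losartan alone left the 44 genes near control there, with a median of 0.01 (all genes 0.09), 23 higher and 21 lower. Called were Ccne1 (1.09) and Stmn1 (−1.05), where 1.28% of all genes were called higher and 0.338% lower. With scaling by the 75th percentile the median was −0.24, with 32 of 44 lower.

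On the CD31pos plates, malignant cells cycled in 24 of 33 control (72.7%), 17 of 25 losartan (68%), 4 of 8 anti-PD1 and 33 of 51 losartan+anti-PD1 cells (64.7%). The losartan+anti-PD1 difference was −8.02 points (−26.4 to 12.5), and for mitotic cells 7.49 (−13.8 to 27.8). The share of cycling cells was thus not shown to differ.

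Gene means over all malignant cells of these plates, cycling or not, were lower. Under losartan+anti-PD1 42 of 44 genes were below control, with a median of −0.73 (all genes −0.02), of −0.87 over the mitotic, −0.35 over the S-phase and −0.59 over the G1/S genes. Called were 9 lower and 0 higher, with 0.804% and 0.507% of all genes. All but Tk1 (−1.11) were mitotic, namely Ccna2 (−1.17), Ccnb1 (−1.56), Cdc20 (−1.19), Ube2c (−1.32), Plk1 (−1.02), Kif20a (−1.27), Kif23 (−1.08) and Nusap1 (−1.42).

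Ccnb1 averaged 14.6 ± 28.3 TP100K in control, 15.5 ± 35.7 in losartan, 32.1 ± 64.3 in anti-PD1 (8 cells) and 4.27 ± 9.36 in losartan+anti-PD1 cells, yet its share above 0 was 45.5%, 32%, 50% and 37.3%. Cdc20 had 31.8 ± 60.7, 36.3 ± 71.8, 24.2 ± 58 and 13.4 ± 24.5, above 0 in 72.7%, 76%, 50% and 70.6%. For Cdc20 the losartan+anti-PD1 cells therefore held the gene as often as control cells but at a lower mean.

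The mitotic score is the mean of the same genes, so it describes that measurement per cell and adds no support. Among mitotic malignant cells of the CD31pos plates, 9 of 15 control cells and 4 of 27 losartan+anti-PD1 cells (60% and 14.8%) had a score of at least 2, a limit chosen after the values were seen, a difference of −45.2 points (−67.2 to −15.2). Of all malignant cells of these plates, 27.3% and 7.84% had such a score, a difference of −19.4 points (−37 to −3.23), while mitotic cells numbered 15 of 33 and 27 of 51. The median mitotic scores of the mitotic cells were 2.03 and 0.831. Losartan had 5 of 12 and anti-PD1 3 of 4. On the CD45neg plates the shares were 8 of 21 and 3 of 11 (38.1% and 27.3%), and the difference of −10.8 points had an interval from −38.2 to 23.2. Median genes of malignant cells were close between these plates, at 7188 and 7181 on CD31pos and 7095 and 7129 on CD45neg.

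Losartan alone on the CD31pos plates gave a median of −0.28 (all genes −0.06), with 34 of 44 lower. Called were 0 higher (0.630% of all genes) and 2 lower (1.23%), the spindle checkpoint gene Bub1b (−1.11) and Tk1 (−1.18). The losartan and losartan+anti-PD1 ratios of a sort share the control plate, so their like direction is no separate evidence.

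**Figure D4:**
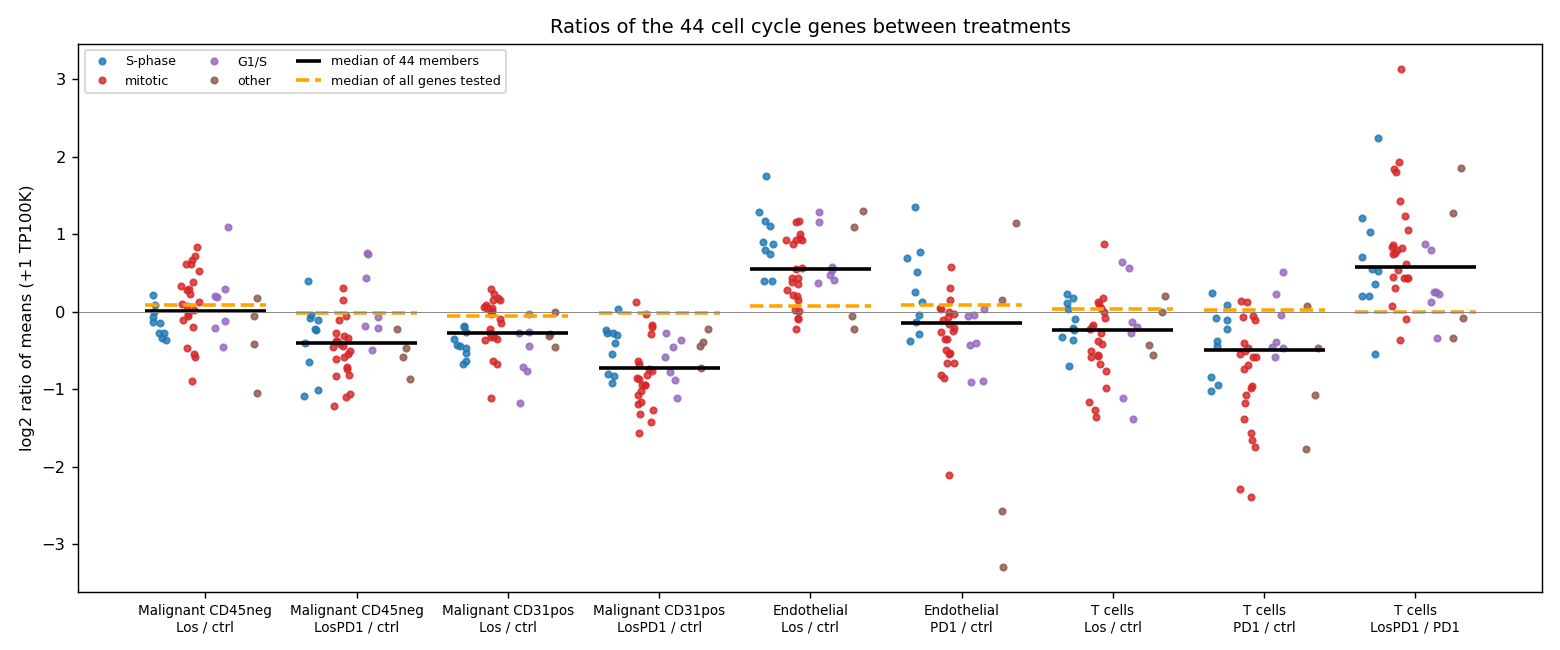
Log2 ratio of means after adding 1 TP100K (y axis) for each of the 44 genes (points, colour for group) in 9 treatment comparisons, with black lines as the median of the 44 and dashed lines as the median of all genes tested. The malignant losartan+anti-PD1 columns lie below 0 (medians −0.40 and −0.73), TECs under losartan lie above (0.55), and T cells lie below for anti-PD1 against control (−0.49) and above for losartan+anti-PD1 against anti-PD1 (0.58).

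TECs cycled in 4 of 43 control cells (9.30%), 10 of 57 losartan cells (17.5%), 5 of 79 anti-PD1 cells (6.33%) and 2 of 16 losartan+anti-PD1 cells (12.5%). Mitotic were 1, 6, 2 and 2. The losartan difference was 8.24 points (−6.28 to 21.3), and 8.20 (−3.03 to 19) for mitotic cells, so both intervals include 0. Among cells with at least 4000 genes, a range added after the data were seen, it was 26.5 (−6.72 to 53.6).

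Under losartan 39 of the 44 genes had a higher mean than in control TECs, with a median of 0.55 (0.87 over the 28 above the detection limit, all genes 0.07). Called were 9 higher and 0 lower, with 9.96% and 6.02% of all genes. Of these, 3 were helicase genes, Mcm5 (1.10), Mcm6 (1.17) and Mcm7 (1.28), and the others Cdk1 (1.17), Birc5 (1.15), Uhrf1 (1.28), Tk1 (1.15), Stmn1 (1.30) and Hmgb2 (1.09), which encodes a chromatin protein of dividing cells. Mcm7 averaged 1.02 ± 2.94 TP100K in control, 3.91 ± 9.25 in losartan, 2.25 ± 8.99 in anti-PD1 and 1.67 ± 6.23 in losartan+anti-PD1 TECs, and was above 0 in 18.6%, 21.1%, 12.7% and 12.5%. The mean differed more between losartan and control than the share of cells above 0.

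Cycling TECs were not spread evenly over the deposited clusters. Cluster 7 held 14 of them among 58 cells (24.1%, 13.9 to 37.2) with 8 mitotic, cluster 3 had 8 of 120 (6.67%) with 3 mitotic, and cluster 12 had 0 of 23. Median genes detected ran in the same order, at 4304, 2775 and 1660, and the part of depth in these shares was not tested. Within cluster 7 losartan TECs cycled in 9 of 24 (37.5%, 18.8 to 59.4) and control TECs in 4 of 28 (14.3%, 4.03 to 32.7), intervals that overlap. Anti-PD1 TECs were nearly all of cluster 3 (78 of 79), so cluster and treatment are hard to tell apart there.

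Some mitotic TECs also carried tumor cell genes. At least 3 of the 6 malignant markers were above 0 in 4 of 11 mitotic TECs, among them all 3 of cluster 3, and in 3 of 174 that did not cycle. Without these cells mitotic TECs numbered 1 in control, 5 in losartan, 0 in anti-PD1 and 1 in losartan+anti-PD1, and the losartan median stayed at 0.80 over the 26 genes above the detection limit. The part of tumor cell RNA was not tested beyond this.

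Under anti-PD1 the 44 genes had a median of −0.14 in TECs (all genes 0.09). Called were 1 higher and 3 lower, with 10.5% and 6.63% of all genes. Stmn1 was higher (1.14), and Ube2c, the ubiquitin-conjugating enzyme of the anaphase-promoting complex (−2.10), Cks1b (−3.29) and Cks2 (−2.57) were lower. All of these are among the genes that may share reads with near-identical copies. Cks1b averaged 11.7 TP100K in control, 11.2 in losartan, 0.300 in anti-PD1 and 13.5 in losartan+anti-PD1 TECs, and was above 0 in 32.6%, 24.6%, 5.06% and 25%, so the anti-PD1 plate stood apart from the other three.

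Under losartan+anti-PD1, with 16 TECs, the median was 0.21 (all genes −0.07). Called were Aurkb (1.75) and Tk1 (1.11) higher and Mcm3 (−1.02) lower, where 11.8% and 13.5% of all genes were called. By the alternative definition of a cell with Mki67 or Top2a above 0, 7 of 16 of these TECs counted, against 5 of 43 in control (32.1 points, 7.80 to 56.1), where the scores gave 3.20.

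T cells cycled in 14 of 79 control cells (17.7%), 10 of 76 losartan cells (13.2%), 5 of 88 anti-PD1 cells (5.68%) and 15 of 84 losartan+anti-PD1 cells (17.9%). Anti-PD1 was below control by 12 points, with a difference of −12 (−22.4 to −2.28), and losartan+anti-PD1 above anti-PD1 by 12.2 (2.51 to 22.2). Both intervals exclude 0 for counting error. Mitotic T cells alone numbered 2, 3, 1 and 5, for which the first difference was −1.40 (−7.70 to 3.95).

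Of the 44 genes, 37 had a lower mean under anti-PD1 than in control T cells, with a median of −0.49 (all genes 0.02). Called were 4 lower and 0 higher (4.58% and 4.89% of all genes), the helicase gene Mcm2 (−1.02), Ube2c (−2.39), Birc5 (−1.56) and Cenpa (−1.18), which encodes the histone of centromeres. Ube2c averaged 5.58 ± 36.2 TP100K in control, 5.23 ± 38.8 in losartan, 0.259 ± 0.621 in anti-PD1 and 9.98 ± 55.2 in losartan+anti-PD1 T cells, with shares above 0 of 16.5%, 21.1%, 22.7% and 19%. The SDs show that a few cells with high values made the means, and that the anti-PD1 plate lacked such cells. Ube2c and Birc5 are among the genes that may share reads with near-identical copies.

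Losartan+anti-PD1 T cells had 38 of 44 genes above the anti-PD1 plate, with a median of 0.58 (all genes 0.00). Called were Mcm2 (1.21), Mcm5 (1.03), Ube2c (3.13) and Birc5 (1.84), 4 higher and 0 lower (5.28% and 4.87% of all genes). Against control the median was 0.05, and 0 genes were called in either direction (3.87% and 2.84% of all genes). Losartan alone gave −0.24, with 0 called (4.77% and 3.87%). These comparisons share plates, so the low values of the anti-PD1 plate are 1 measurement and not several.

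Of the genes that control cycle entry, Cdkn1a was lower on the anti-PD1 plate than in control T cells (−2.18), as was Myc (−1.36), a driver of growth, and Btg2 was higher (1.5).

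The cycling T cells were mostly CD4+ cells. Of T cells with Cd4 above 0 and with Foxp3 and both CD8 chain genes at 0, 24 of 105 cycled (22.9%, 15.2 to 32.1), 7 of them mitotic. CD8+ T cells, in which Cd4 was at 0 and either CD8 chain gene above it, cycled in 8 of 107 (7.48%, 3.28 to 14.2), with 1 mitotic. Foxp3+ cells did so in 3 of 32 (9.38%) with none mitotic, which allows up to 9.38%, and unclassed cells in 9 of 83 (10.8%).

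The plates differed in this mix. CD8+ cells were 65.9% of T cells on the anti-PD1 plate, 31.6% in control, 7.89% in losartan and 21.4% in losartan+anti-PD1, and the CD4+ cells without Foxp3 9.09%, 24.1%, 53.9% and 44%. Within classes few cells remained. Among CD8+ cells 3 of 25 control and 4 of 58 anti-PD1 cells cycled, among Foxp3+ cells 2 of 7 and 0 of 13, and among unclassed cells 6 of 28 and 0 of 9. Among the CD4+ cells without Foxp3, 3 of 19 control, 9 of 41 losartan, 1 of 8 anti-PD1 and 11 of 37 losartan+anti-PD1 cells cycled, with wide and overlapping intervals. The pooled CD8+ share rests largely on the anti-PD1 plate itself, which gave 58 of the 107 CD8+ cells. On the control plate alone, 12% of CD8+ cells and 15.8% of CD4+ cells without Foxp3 cycled. Each class had a lower share on the anti-PD1 plate than on the control plate. The part of the mix in the lower share of the anti-PD1 plate was not tested.

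**Figure D5:**
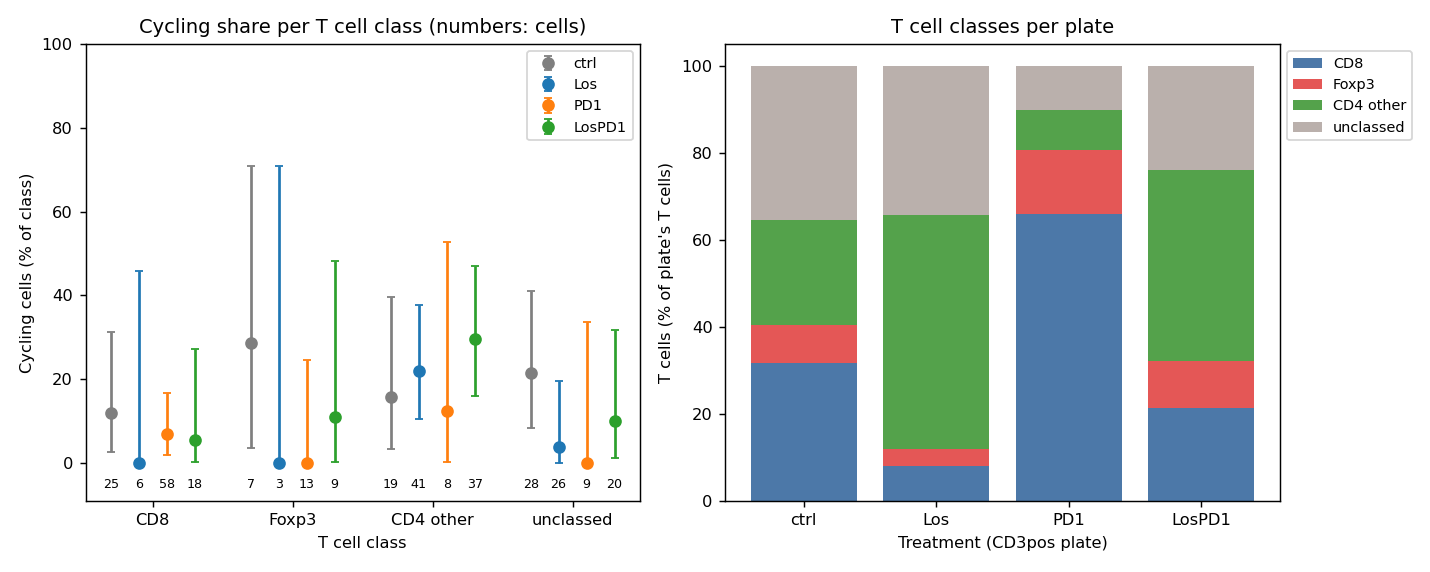
Left, share of cycling cells (y axis, % of class) by T cell class and treatment, with exact 95% intervals over cells and cell numbers at the foot; right, share of each class among the T cells of each CD3pos plate (y axis, %). CD4+ cells without Foxp3 have the highest share over all plates (22.9%), and the anti-PD1 plate is 65.9% CD8+.

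Some T cell genes had other shares in mitotic cells. Ctla4, which encodes a checkpoint receptor, was above 0 in 11 of 11 mitotic T cells, 27 of 33 past the S-phase limit alone and 174 of 283 others, and Pdcd1, the gene of PD1, in 9 of 11, 26 of 33 and 148 of 283. Their means were not higher, at 51.5, 62.5 and 68.1 TP100K for Ctla4 and 46.1, 60.2 and 51.4 for Pdcd1, in the same order. Mitotic T cells had more genes detected, with a median of 4382 where both limits were passed and 3396 where the mitotic one alone was, against 1963 in cells that did not cycle, and the part of this in the shares was not tested. The cytotoxic gene Gzmb went the other way by share, in 3 of 11, 8 of 33 and 95 of 283, and Cd8b1 in 3 of 11, 7 of 33 and 132 of 283, while Cd8a was above 0 in 4 of 11, 9 of 33 and 99 of 283. The mitotic cells number 11, and these shares carry no test.

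On the CD45pos plates 35 of the 44 genes had a lower mean in NK cells than in B cells, with a median of −0.95 (all genes 0.01), and 11 were called lower and 1 higher (14.8% and 14.1% of all genes). The one higher was Mcm6 (14.9 against 5.63 TP100K, 1.26). Top2a had 0.740 against 11.9 (−2.89) and Mki67 1.24 against 6.40 (−1.72), yet Top2a was above 0 in 13.2% of NK cells and 9.09% of B cells, and those B cell means rest largely on 2 mitotic cells, with mitotic scores of 3.52 and 2.62. The same 2 cells enter the ratios of all 44 genes. Of the 53 NK cells 36 came from the losartan+anti-PD1 plate and 2 from the anti-PD1 plate, against 12 and 13 of the 33 B cells. Cell type and plate are therefore hard to tell apart here. NK cells cycled in 1 of 10 control, 1 of 5 losartan, 1 of 2 anti-PD1 and 7 of 36 losartan+anti-PD1 cells (19.4%).

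Myeloid cells cycled in 5 of 25 control (20%), 8 of 34 losartan (23.5%), 0 of 3 anti-PD1 and 0 of 11 losartan+anti-PD1 cells. Under losartan the 44 genes split, with medians of −0.98 over S-phase, −1.29 over G1/S and 0.51 over mitotic genes (0.03 over all 44, all genes 0.14). Called were 3 higher and 7 lower, with 10.6% and 3.84% of all genes. Higher were Ube2c (1.65), Kif23 (1.58) and Cenpa (1.14), and lower Mcm2 (−1.79), Mcm3 (−2.38), Mcm7 (−1.52), Rrm1 (−1.60), Gins2 (−1.32), Uhrf1 (−1.50) and Tk1 (−1.51). Mcm3 averaged 11.1 ± 22.7 TP100K in control and 1.32 ± 4.20 in losartan cells. Few cells carry this, since 2 control cells had S-phase scores of 3.48 and 3.29 and 1 losartan cell a mitotic score of 2.86.

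Under losartan+anti-PD1 the myeloid median was −0.54 (all genes −0.12), with 8 called lower and 1 higher beside 18.8% and 13.2% of all genes. Mcm7 and Top2a, at 9.90 and 1.54 TP100K in control, were listed at 0 in all 11 cells, a count that allows up to 27.3% of cells with a value. Microglia cycled in 3 of 28 control, 3 of 30 losartan, 0 of 8 anti-PD1 and 0 of 13 losartan+anti-PD1 cells. All 6 of these cycling microglia carried at least 3 of the 6 markers of another type, as against 14 of 73 others.

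Over 148 malignant cells of the CD45neg plates, the genes outside the 44 most correlated with the mitotic score were Cdca8 (r = 0.91), Nek2 and Ska1 (0.87 each), Kif2c, Ckap2l, Racgap1, Ncapg, Ect2, Hmmr and Foxm1 (0.83), most of which encode parts of the spindle, kinetochore or cleavage furrow. The same genes had r of 0.73 to 0.91 on the CD31pos plates. In 327 T cells they were led by Ska3 (0.58), Hmmr (0.53) and Mad2l1 (0.49). The lowest in T cells were Malat1 (−0.22), Gm19757 (−0.18) and Fos (−0.17). Fos averaged 12.8 TP100K in mitotic and 293 in T cells that did not cycle. Rn45s (−0.17), the chemokine gene Ccl5 (−0.15), the cathepsin gene Ctsw (−0.14), Gm10845 (−0.14) and Gm17821 (−0.13) were also among the 10 lowest. The 95th percentile over all genes was 0.28 in malignant cells and 0.18 in T cells, and the 5th −0.11 and −0.06. Cells of a plate share depth.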

How the data were processed

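Cells of GL261 tumors were sorted and sequenced by Smart-seq2. Reads were demultiplexed, aligned to the mouse transcriptome (mm10) and quantified with RSEM (1.2.8 in the submitters' processing notes, which also name Bowtie and TopHat; the methods give another version). Values of the CD31pos and CD3pos plates are TPM as deposited, which the authors divided by transcript length and summed to 1e+06 per cell. Values of the CD45neg and CD45pos plates are expected counts as deposited, which the authors did not divide by length; 78.7% of those above 0 are whole with no tolerance. Cells had passed a filter by the authors of 1000 to 8000 genes detected, and of 20 or more housekeeping genes. Cell types, treatments and clusters are the authors' labels, and no doublet caller was run; cells with 3 or more of 6 markers of another type were counted.

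Each cell was scaled to 100000. Ratios are log2 of means after adding 1 TP100K, within a sort, between groups of at least 10 cells, and called from 1 in size among genes above 0 in at least 10% of cells on average. No test was run. Only the ratio step and the exact intervals were tried on simulated data, the ratios with Poisson counts for malignant cells of the CD45neg plates. The scores, their limits, the T cell classes, the correlations and the promoter matches were not. Genes named are all 44, pathway and marker genes, T cell genes, and the 10 highest and lowest correlations with the mitotic score in malignant cells and T cells. The members and lists were chosen with earlier results of these data known. Alternatives covered score limits, scaling, pseudocount, filter, genes detected and cells with other markers. Chosen after the data were seen were the range of at least 4000 genes, the ratios without cells with other markers, the malignant values without the anti-PD1 plates and the T cell classes by mitotic score alone. The mitotic score limit of 2 was also chosen then, and the printed promoters of Mcm6 and Top2a were added afterwards. Promoters are RefSeq windows of 250 bases before to 50 after each start; 34 of 39 ended within a transcript of the gene. Scripts ran in Python 3.11.15 with SciPy 1.17.1, NumPy 2.4.6, matplotlib 3.10.9 and, for tables, pandas 2.3.3.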

Additional observations from a re-analysis of the deposited data

Results flagged for a closer look

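Over the 44 genes, TECs and malignant cells of the same CD31pos plates moved in opposite directions. For losartan against control the median log2 ratio was 0.55 in TECs and −0.28 in malignant cells, a difference of 0.83, and for losartan+anti-PD1 against control it was 0.21 and −0.73, a difference of 0.94. On the CD45pos plates, losartan+anti-PD1 against control gave 0.27 in NK cells and −0.54 in myeloid cells, a difference of 0.81. Group sizes were uneven, with 36 against 10 NK cells and 11 against 25 myeloid cells. Mcm3, Mcm7 and Mki67, among others, were listed at 0 in all 10 control NK cells. The NK median over genes above the detection limit changed sign with a limit of 25%, so the NK direction is not secure. With 1 plate per group, none of these differences was tested.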

How the results depend on the processing

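Of 160 alternative values for differences in cycling share, 153 stayed within the 95% interval of the reported value, as did 5 of 12 for T cell classes. Of 119 for the median log2 ratio over the genes above the detection limit, 114 stayed within 1.5-fold of the reported ratio, and a change of sign was counted from a reported 0.2 in size. Those that moved follow. For shares in percentage points, losartan TECs moved from 8.24 to 26.5 with at least 4000 genes, losartan+anti-PD1 TECs with Mki67 or Top2a from 3.20 to 32.1 against control and from 6.17 to 36.2 against anti-PD1, and anti-PD1 T cells by the mitotic score alone from −12.0 to −1.40. Losartan myeloid cells moved from 3.53 to 24.1 with limits above the highest oligodendrocyte and to −22.7 with at least 4000 genes, and losartan microglia from −0.714 to −22.4 with 5 of 10 S-phase or 5 of 23 mitotic genes above 0. For medians, losartan TECs moved from 0.87 to 0.22 with a pseudocount of 10, losartan+anti-PD1 against anti-PD1 T cells from 0.44 to 1.04 with 75th percentile scaling, and losartan myeloid cells from −0.06 to −0.70 with at least 4000 genes. With a detection limit of 25%, losartan+anti-PD1 against anti-PD1 TECs reversed from 0.35 to −0.04 and losartan+anti-PD1 NK cells from 0.36 to −0.12. For classes, CD8+ cells moved from 7.48% to 2.80% with limits of 1.5 and 1 and to 0.935% by the mitotic score alone, CD4+ cells without Foxp3 from 22.9% to 13.3% and 6.67%, Foxp3+ cells by the mitotic score alone from 9.38% to 0%, and unclassed cells from 10.8% to 3.61%, or to 2.56% where CD8+ was set whatever the Cd4 value. The causes were not tested. Thinning to 50000 counts left out 12 of 426 cells. No paired analysis was possible because each group is 1 plate and the labels give no number that pairs plates of different treatments. The plate names share a number only across the sorts of a treatment. Depth is unknown for TPM values, and the number of cycling cells in each group other than malignant cells is under 20.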
